A study of Zea mays with 6 samples.

Results

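The replication clamp and core histone genes described here are 3 gene models of the 39625 in a table of transcript levels in maize pollen: GRMZM2G030523 (PCNA, also pcna1), the sliding clamp of DNA replication, GRMZM2G342515 (his2b5), a histone H2B gene, and GRMZM2G181153, a histone H4 gene listed as H4C13. They were picked by identifier and had been chosen by their lower values after heat in an earlier analysis of the same 6 libraries, so their heat and control levels are given as a description with no test. The name of the H4 model is not settled. The RefSeq gene record that holds it also holds GRMZM2G084195 and GRMZM2G149178, together with the names H4C13, H4C14 and H4C7, and does not pair names with models, so these are called below by identifier.

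PCNA forms a ring around DNA that holds the replicative polymerases on their template, and its gene is a standard marker of S phase. Histones H2B and H4 are parts of the nucleosome, the protein spool that packs DNA, and most of their supply is made while DNA is being copied. Mature maize pollen holds a vegetative cell, which will form the pollen tube, and a pair of sperm cells within it, and the last division that makes the sperm comes before the pollen is shed.

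RNA was sequenced from mature pollen of the inbred line B73 in 3 control and 3 heat libraries. Control plants had days of 25 °C and nights of 21 °C. Heat plants were moved at the tetrad stage of pollen development, just after meiosis, for 48 h to days of 35 °C and nights of 25 °C, with humidity at 60% in both groups, and then grew on in the greenhouse up to pollen maturity. The libraries are labelled biological replicates, the number of plants behind each is not given in the labels, and pollen was collected well after the heat had ended. Levels are TPM (reads per gene length, scaled to the same total in each library), which allows levels of different genes to be compared. The libraries held between 19086616 and 28640667 reads, and every control library was deeper than every heat library. Of 7 pollen markers 6 were matched, with a summed level of 38081 to 40062 TPM in control and 38494 to 41253 TPM in heat. Single markers went different ways within that sum. For pme1 every heat library was below every control library (heat to control ratio 0.843). For prf1 (1.26), prf3 (1.25) and rop2 (1.20) every heat library was above every control library, and for mgs1 and prf2 the groups overlapped. Leaf markers (3 of 6 matched) summed to 0.191 to 0.455 TPM in control and 0.433 to 0.700 TPM in heat. Most of that sum was ppdk1, which averaged 0.291 ± 0.109 TPM in the controls and 0.519 ± 0.0916 TPM after heat. It was higher in every heat library than in every control library. The small subunit gene ssu1 was at 0 in 5 of the libraries.

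The replication clamp gene PCNA was at a low level in control pollen and lower after heat. It had 2.42, 2.47 and 2.39 TPM in control replicates 1, 2 and 3, and 1.62, 1.32 and 1.02 TPM in heat replicates 1, 2 and 3. The controls lay close together, the heat libraries were spread more widely, and the groups did not overlap. The means were 2.42 ± 0.0411 TPM for control and 1.32 ± 0.300 TPM for heat (SD, n = 3 each), a heat to control ratio of 0.544. On the log2(TPM + 1) scale the difference was -0.57 (SE 0.13), and this scale understates the change of low genes. Each log2 difference and log2 fold change below is on this scale, unless another fit is named. The TPM levels are shares of all transcripts of whole pollen. In them, fewer cells of a type and less RNA per cell cannot be told apart.

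The histone H2B gene his2b5 showed the same order of groups at about the middle of the expressed range, with 54.9% of tested genes below its control mean. It had 4.57, 5.99 and 5.50 TPM in control replicates 1, 2 and 3, and 2.56, 3.06 and 3.37 TPM in heat replicates 1, 2 and 3. Each heat library was lower than each control library, with a gap of 1.20 TPM between the nearest values. The means were 5.35 ± 0.723 TPM and 3.00 ± 0.407 TPM (SD, n = 3 each), a ratio of 0.560, and the log2 difference was -0.67 (SE 0.13).

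The histone H4 gene GRMZM2G181153 was the most abundant of the 3 in both groups. Its levels were 8.33, 10.0 and 8.42 TPM in control replicates 1, 2 and 3, and 6.06, 5.23 and 5.95 TPM in heat replicates 1, 2 and 3. The heat libraries lay within a narrow range, all below the controls. The means were 8.92 ± 0.944 TPM and 5.75 ± 0.453 TPM (SD, n = 3 each), a ratio of 0.644, and the log2 difference was -0.55 (SE 0.11).

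**Figure D1:**
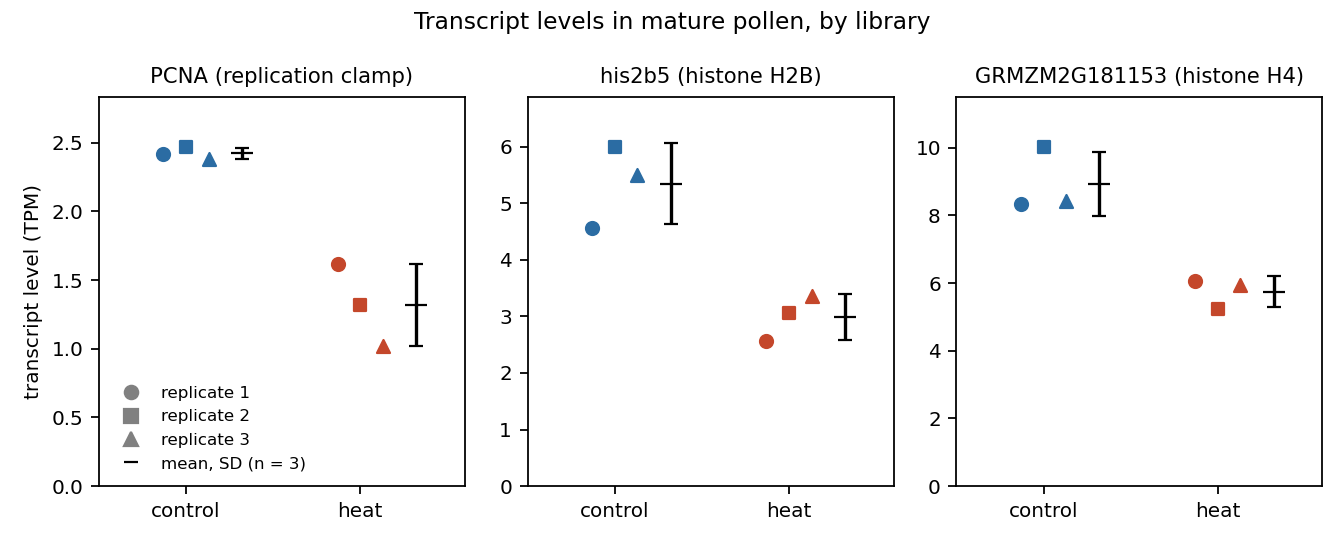
Transcript levels (TPM, linear axis from 0) of PCNA, his2b5 and the histone H4 model GRMZM2G181153 in the 3 control (blue) and 3 heat (red) libraries; symbols mark replicates, and the black bar is the mean with its SD (n = 3). In each panel all heat libraries lie below all control libraries, with gaps of 0.764, 1.20 and 2.27 TPM between the nearest values.

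In the order of levels, PCNA was lowest, his2b5 came next and the H4 model was highest, and neighbouring genes did not overlap among the control libraries or among the heat libraries. Every heat library lay below every control library for all 3 genes. This was so for 13.3% of the 8615 genes that reached 1 TPM in at least 3 libraries, and all 3 genes were among those tested with at least 1 TPM in all 6 libraries. Since the genes were chosen on this contrast, nothing is read from that count. Between 2.61% (his2b5) and 3.75% (the H4 model) of tested genes had a more negative log2 difference, with PCNA at 3.54% between them. These ranks come from the contrast used for the choice, so nothing is read from them either. Their order depends on the scale: the heat to control ratio was lowest for PCNA (0.544), then his2b5 (0.560) and the H4 model (0.644).

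These levels rest on modest numbers of reads, which could be rebuilt from the TPM values. PCNA had 70, 59 and 50 reads in the controls and 32, 26 and 20 in the heat libraries. The summed reads were 179 in control (95% Poisson interval 153.7 to 207.2) and 78 in heat (61.7 to 97.3). For his2b5 the sums were 278 (246.3 to 312.7) and 126 (105.0 to 150.0), and for the H4 model 439 (398.9 to 482.1) and 227 (198.4 to 258.5). Intervals cover counting error alone. The sums are not scaled to library depth, which was greater in every control library, so they overstate the fall given by the TPM ratios. Since the genes were chosen on this contrast, the separation of the intervals is not read as a test. Counting alone gives a coefficient of variation of 12.9% for PCNA in control and 19.6% in heat, where the observed values were 1.70% and 22.8%. The PCNA controls thus varied by less than counting error gives on average. For his2b5 the observed variation was 13.5% and 13.6% against 10.4% and 15.4% from counting, and for the H4 model 10.6% and 7.88% against 8.27% and 11.5%.

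Sequencing lanes differed between libraries: the controls and heat replicate 3 shared lanes 3, 4 and 5, and heat replicates 1 and 2 were run on lanes 1 and 2. Heat replicate 3, on the lanes of the controls, had 0.421 times the mean control level of PCNA, 0.629 times that of his2b5 and 0.667 times that of the H4 model. It was the lowest heat library for PCNA and the highest for his2b5. With the lane set as a covariate the log2 differences were -0.76 (SE 0.18) for PCNA, -0.53 (SE 0.19) for his2b5 and -0.51 (SE 0.17) for the H4 model. Since heat replicates 1 and 2 were alone on their lanes, every value with the lane as a covariate sets heat replicate 3 alone against the controls, assuming that it varies like the other libraries, and here it restates the ratios just given on the log2 scale.

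**Figure D2:**
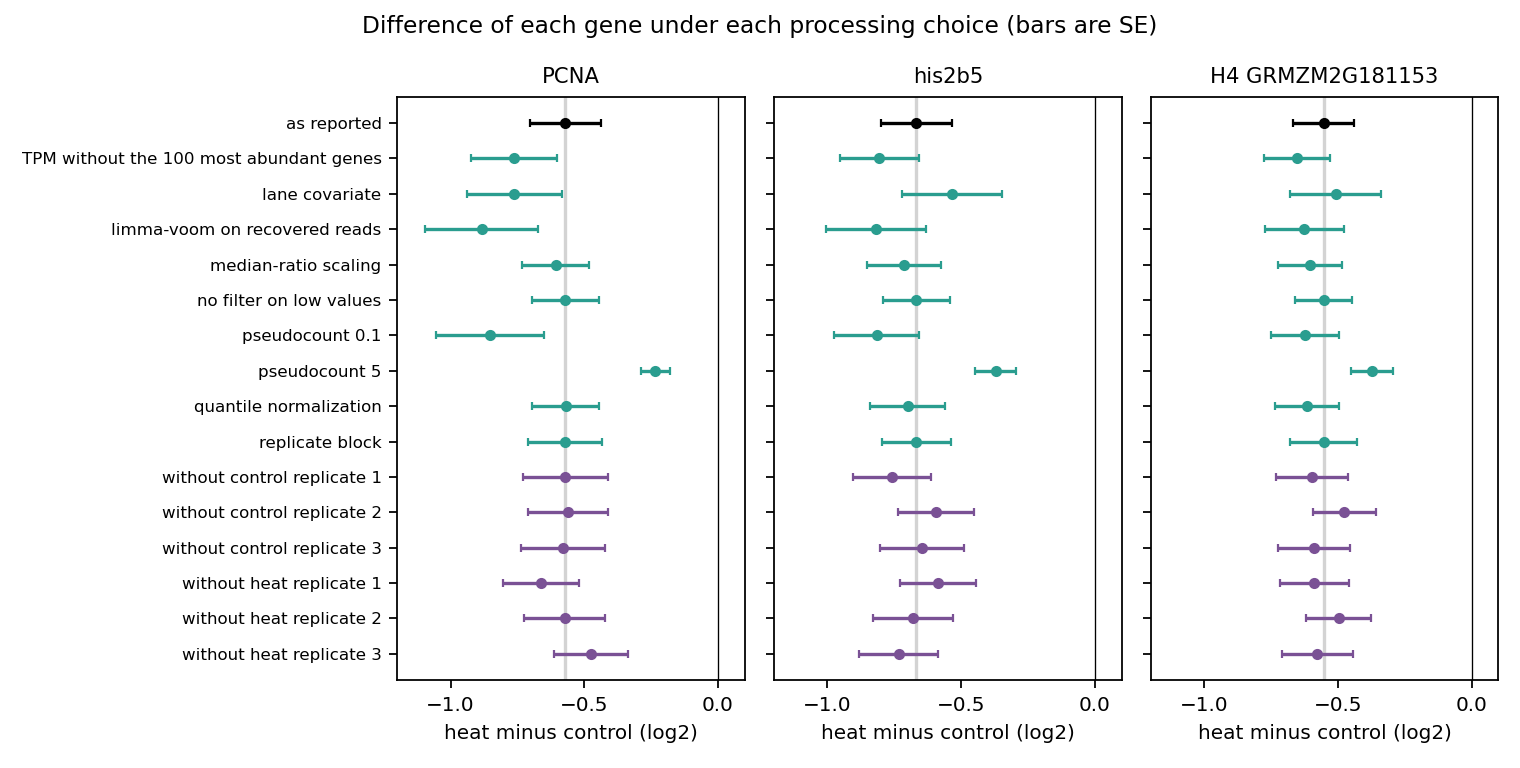
Heat minus control difference of each gene (log2 scale; points are estimates and bars their SE) as reported, under 9 other processing choices (green) and with each library left out in turn (purple). All points lie below 0, from -0.88 to -0.23 for PCNA, from -0.82 to -0.37 for his2b5 and from -0.65 to -0.37 for the H4 model, with the values nearest 0 at a pseudocount of 5.

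Other gene models carry the same kinds of names: 1 more replication clamp gene, 2 more H2B genes and 2 more H4 models. All 5 had a lower mean after heat, 3 of them had no overlap between groups, against 13.3% of tested genes with every heat library below every control library, and 1 passed the test across all genes, in which 7.15% of tested genes were called lower. The second clamp gene pcna2 (GRMZM2G108712) had 5.19, 4.10 and 5.35 TPM in control replicates 1, 2 and 3. In heat replicates 1, 2 and 3 it had 2.30, 1.29 and 1.68 TPM, and the heat to control ratio was 0.360. Its log2 fold change was -1.10 (SE 0.15, adjusted p = 0.000311), and its adjusted p stayed under the threshold of 0.05 in each of 15 alternatives (5.24e-05 to 0.0126). Together the 2 clamp genes summed to 7.30 ± 0.640 TPM in the controls and 3.08 ± 0.729 TPM after heat (SD, n = 3 each). PCNA made up 30.8% to 37.6% of that sum in the controls and 37.8% to 50.4% in the heat libraries.

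Among the H2B genes, histone2b1 (GRMZM2G071959) was far more abundant than his2b5, with means of 250.6 ± 22.1 TPM (control) and 228.0 ± 15.6 TPM (heat; SD, n = 3 each). Its libraries overlapped between groups and it was not called (adjusted p = 0.266), except after quantile normalization (log2 fold change -0.26, adjusted p = 0.0364). The gene his2b2 (GRMZM2G119071) had 2.79, 2.66 and 3.10 TPM in control replicates 1, 2 and 3 and 2.57, 1.91 and 1.59 TPM in heat replicates 1, 2 and 3, without overlap, and was not called either (log2 fold change -0.36, SE 0.14, adjusted p = 0.0958). Because histone2b1 supplied nearly all of the summed level of the 3 H2B models found by name, his2b5 was a small part of that sum. Its share was 1.85% to 2.24% in the controls and 1.16% to 1.49% in the heat libraries. Only 2859 of 39625 models had a name, so any H2B, H4 or clamp genes without one are outside the sums given here. The H2B sum was 258.8 ± 22.4 TPM in control and 233.0 ± 15.6 TPM in heat.

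The 3 H4 models were closer to each other in level. GRMZM2G084195 had 11.0, 10.9 and 11.4 TPM in control replicates 1, 2 and 3 and 10.6, 8.04 and 8.04 TPM in heat replicates 1, 2 and 3, with adjusted p = 0.0934. GRMZM2G149178 had 14.9, 14.8 and 12.6 TPM in the controls and 12.7, 10.1 and 10.3 TPM in the heat libraries, in the same order, with adjusted p = 0.0556, and its heat replicate 1 lay just above its control replicate 3. In both, heat replicate 1 lay near the controls and the other heat libraries lower. Neither was called in the test across all genes, while without heat replicate 1 both were (adjusted p = 0.0163 and 0.0173), as was his2b2 (0.0279). Both H4 models were also called lower after median-ratio scaling (0.0498 and 0.0349), without the 100 most abundant genes (0.0452 and 0.0299) and after quantile normalization (0.0390 and 0.0262). Of the 15 alternatives, GRMZM2G084195 was not called in 11, GRMZM2G149178 in 10 and his2b2 in 14. The summed level of these 3 H4 models was 34.1 ± 1.61 TPM in control and 25.7 ± 3.21 TPM in heat (SD, n = 3 each). GRMZM2G181153 was 24.3% to 28.1% of that sum in control and 20.7% to 24.5% in heat. Whether the chosen models differed from their copies was not tested. Histone genes have near-identical copies, and the sources used here do not say how reads that map to several of them were counted, so the split of reads among copies is uncertain. How any reads shared by PCNA and pcna2 were counted is not given either, which limits the shares of the clamp sum in the same way.

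**Figure D3:**
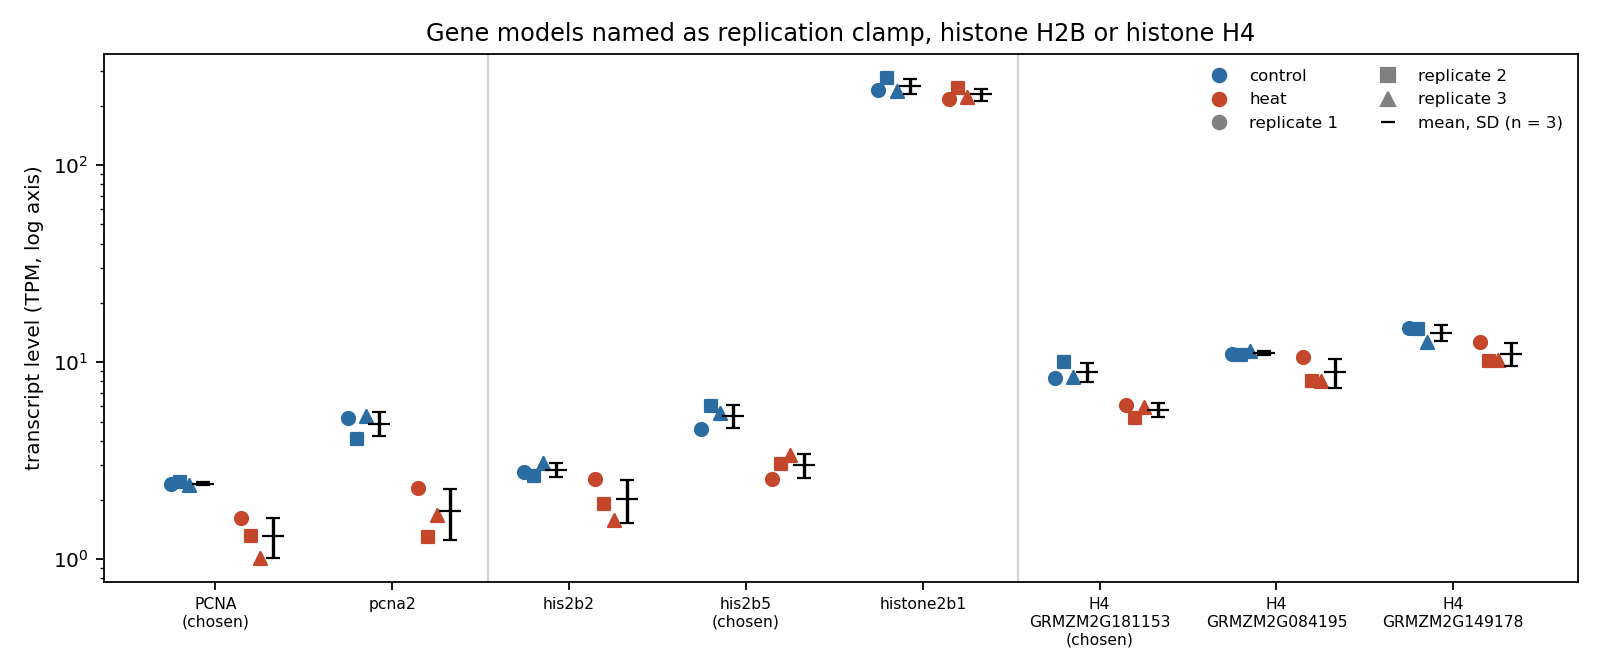
Transcript levels (TPM, log axis) of the 8 gene models named as replication clamp, histone H2B or histone H4 in the control (blue) and heat (red) libraries; symbols mark replicates, the black bar is the mean with its SD (n = 3), and "chosen" marks the 3 genes picked on this contrast. Mean levels run from 1.32 TPM (PCNA in heat) to 250.6 TPM (histone2b1 in control), and each model has a lower mean in heat.

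Wider lists of genes were then read from the same limma fit across all 8615 genes, of which 20.2% were called: 7.15% lower and 13% higher after heat. Of the called genes 64.6% were higher, against 54.4% after median-ratio scaling, 53.1% without the 100 most abundant genes and 47.8% after quantile normalization. The 616 genes called lower became 374 without control replicate 1, 391 without control replicate 3, 953 after quantile normalization and 219 with the lane as a covariate. The chosen genes are left out of the counts below. The median log2 difference of all tested genes was 0.04.

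Of 5 other tested core histone models 0 were called lower, 1 was called higher and 4 were not called, with a median log2 difference of -0.30; all 4 were among those just described. At an unadjusted p under 0.05 there were 4: the gene that rose and, lower after heat, his2b2, GRMZM2G084195 and GRMZM2G149178. Of the 5 models, limma-voom called only the gene that rose. The gene that rose was cenH3 (GRMZM2G157596), which encodes the histone H3 variant of centromeres. It rose from 0.778 ± 0.0299 to 1.47 ± 0.387 TPM (SD, n = 3 each), a heat to control ratio of 1.90. The log2 fold change was 0.47 (SE 0.14, adjusted p = 0.0315), and cenH3 passed the filter on low values only through its heat libraries. Its call was lost without control replicate 1 (0.0993), 2 (0.0684) or 3 (0.0756), without heat replicate 2 (0.126) or 3 (0.0643), with the lane as a covariate (0.254) and with no filter (0.112). Its log2 fold change was 0.35 without heat replicate 2 and 0.42 to 0.49 in the other fits without a call.

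The DNA replication list held 7 tested models besides PCNA, of which pcna2 fell, 0 rose and 6 were not called, with a median log2 difference of 0.22. The 6 others had log2 differences from 0.01 to 0.40. The subunits of the origin recognition complex orc2 (GRMZM2G117238) and orc3 (GRMZM2G381822) had 6.84 ± 0.989 and 1.85 ± 0.106 TPM in control and 8.06 ± 0.253 and 2.78 ± 0.642 TPM in heat (SD, n = 3 each), with adjusted p of 0.225 and 0.0651. For orc3 the adjusted p was 0.0486 without heat replicate 1 and 0.0248 with limma-voom. The flap endonuclease gene FEN1 (GRMZM2G121262), whose product trims Okazaki fragments on the clamp, averaged 1.62 ± 0.198 TPM in the controls and 2.15 ± 0.428 TPM after heat (adjusted p = 0.215). The other 8 models of the list did not reach the filter and had at most 0.919 TPM in any library. Their means were lower after heat for RNRS2, MCM6, RNRL2, orc4 and orc1, higher for SLD5 and MCM7, and 0 in both groups for RNRL1. RNRS2 (GRMZM2G155546) averaged 0.729 ± 0.175 TPM in the controls and 0.478 ± 0.113 TPM after heat, with every heat library below every control library.

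In the chromatin assembly list 2 of 8 tested models rose, 0 fell and 6 were not called, with a median log2 difference of 0.14. The nucleosome assembly factor gene nfa101 (GRMZM2G140051) rose from 4.49, 3.23 and 4.62 TPM in control replicates 1, 2 and 3 to 8.77, 8.86 and 6.91 TPM in heat replicates 1, 2 and 3 (log2 fold change 0.85, SE 0.14, adjusted p = 0.00110). Its call was lost with the lane as a covariate alone (log2 fold change 0.64, SE 0.19, adjusted p = 0.0668). The HMG-type gene nfd102 (GRMZM2G145968) rose from 3.81 ± 0.655 to 5.68 ± 1.23 TPM (adjusted p = 0.0462). That call was lost under 8 of 15 alternatives, including the removal of control replicate 1 (0.112), control replicate 3 (0.173) or heat replicate 2 (0.180), the lane (0.481), no filter (0.141), median-ratio scaling (0.0788), quantile normalization (0.0651) and TPM without the 100 most abundant genes (0.0765). In these 8 fits its log2 fold change ran from 0.29 with the lane to 0.47, against 0.47 as reported. The most abundant gene of the list, nfd101 (GRMZM2G066528), averaged 51.6 ± 1.95 TPM in the controls and 57.7 ± 3.99 TPM after heat (adjusted p = 0.200).

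In the cell cycle list 2 of 6 tested models fell, 0 rose and 4 were not called, with a median log2 difference of -0.19. The list was made by name pattern, and not all of its models are cell cycle genes. For the retinoblastoma-related gene rbr3 (GRMZM2G033828), control replicates 1, 2 and 3 had 1.89, 1.71 and 1.59 TPM. Heat replicates 1, 2 and 3 had 1.10, 0.853 and 0.973 TPM, and rbr3 was called lower (adjusted p = 0.0181). Its call was lost without control replicate 1 (0.0827) and without heat replicate 2 (0.0652) or 3 (0.0503), with the lane as a covariate (0.159) and with no filter (0.0605). In these fits its log2 fold change ran from -0.47 to -0.42, against -0.47 as reported. The related RBR1 (GRMZM2G003043) averaged 1.47 ± 0.145 TPM in the controls and 1.05 ± 0.180 TPM after heat and was not called (adjusted p = 0.164), except with limma-voom (0.0489). The other gene that fell, krp11 (GRMZM2G436981), went from 1.85 ± 0.155 to 0.524 ± 0.238 TPM (SD, n = 3 each). The heat to control ratio was 0.284, against a log2(TPM + 1) difference of -0.91 (adjusted p = 0.000623). The gene passed the filter only through its control libraries. It is also named kin11. Of the 18 models of this list, 7 were matched through krp names. These models also carry kin names, so krp stands here for kinesin-related proteins and not for the inhibitors of cyclin-dependent kinases. The most abundant tested model, krp9 (GRMZM5G881464), was another of these. It averaged 54.6 ± 6.75 TPM in the controls and 60.4 ± 5.16 TPM after heat (adjusted p = 0.342). The tested model cks1 (GRMZM2G119256) also carries the names KDO1, kds1 and KDSB, so it may not be a cell cycle gene. Of the tested models besides krp9, krp11 and cks1, rbr3 was called lower, and RBR1 and cycD4 (adjusted p = 0.202) were not called in the test across all genes.

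**Figure D4:**
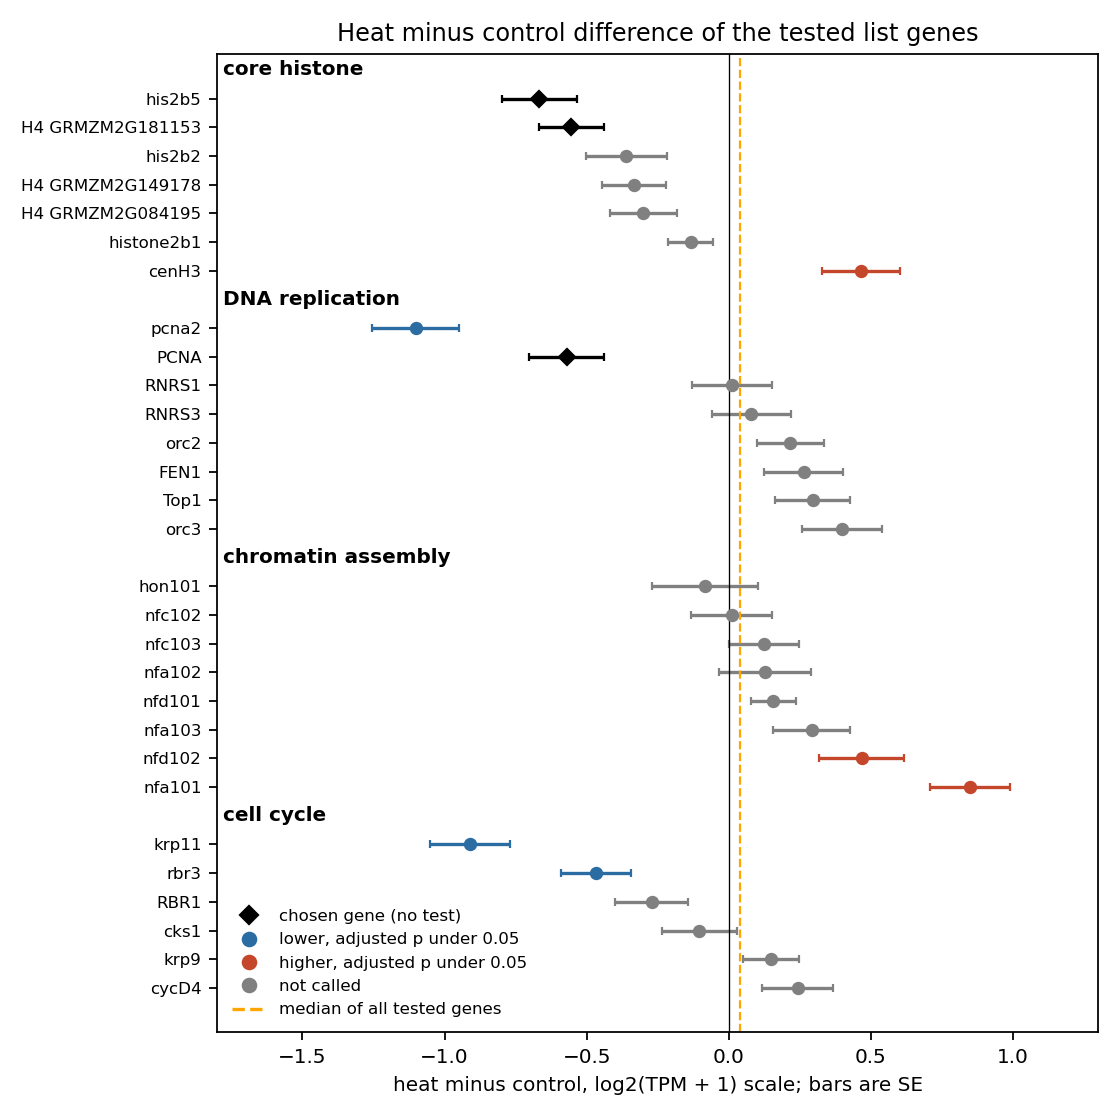
Heat minus control difference (log2(TPM + 1) scale, bars are SE) of the tested genes in the core histone, DNA replication, chromatin assembly and cell cycle lists; black diamonds are the 3 genes chosen on this contrast, colour marks genes past the adjusted threshold and the dashed line is the median of all tested genes (0.04). The clamp genes lie at -1.10 and -0.57, while the other 6 tested replication genes lie between 0.01 and 0.40.

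Markers of the sperm cells within the pollen, and of the tapetum and anther wall, were read beside these results. The sperm marker hap2 (GRMZM2G412911), the 1 matched of 4, ranged from 5.78 to 7.47 TPM in the controls and from 6.88 to 7.99 TPM after heat, so its groups overlapped. Tapetum and anther wall markers (5 of 8 matched) summed to 2.66 to 3.38 TPM in control and 4.02 to 4.49 TPM in heat, with ocl4 at 0 in all libraries. Most of that sum was ms32 (GRMZM2G163233), averaging 1.62 ± 0.222 TPM in the controls and 3.17 ± 0.111 TPM after heat, whereas ms26 (GRMZM2G091822) had 1.25 ± 0.0572 and 0.886 ± 0.262 TPM. The part of sperm cells, or of tapetum and anther wall cells, in the levels of the clamp and histone genes was not tested.

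Genes with a name and a mean of at least 5 TPM were ranked by how closely their log2(TPM + 1) values followed each of the 3 genes over the 6 libraries. For PCNA these were the pectin methylesterase gene pme1 (GRMZM2G125356, Pearson coefficient 0.99), the calcium-dependent kinase gene cdpk1 (GRMZM2G115518, 0.98) and arpp40 (GRMZM2G126821, 0.98). For his2b5 they were EREB179 (GRMZM2G129674, 0.97), of the AP2/EREB transcription factor family, Sod3.2 (GRMZM2G124455, 0.96) and MYBE1 (GRMZM2G145041, 0.95). For the H4 model they were SRA (GRMZM5G840145, 0.99), pme1 (0.94) and EREB179 (0.94). The coefficients among the chosen genes themselves were 0.92 for his2b5 with the H4 model, 0.90 for PCNA with the H4 model and 0.79 for PCNA with his2b5. All 7 genes named were lower in every heat than in every control library, so the coefficients describe mainly the step between 2 groups of 3 libraries.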

How the data were processed

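The authors deposited TPM per gene model, taken here unchanged. The genome build was B73 RefGen_v3, and the tools named are STAR 2.5.2a, featureCounts, Trimmomatic 0.35, FastQC and DESeq2, per the submitters' processing notes; the role of each, the strand setting and the handling of multi-mapping reads are not given in the sources used here. The lane numbers come from the deposited sample sheets.

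Gene names were looked up in RefSeq's table for Zm-B73-REFERENCE-NAM-5.0, a different build, of which nothing else was used. It matched 19060 of 39625 gene models, 2859 of them with a real gene name. Gene and promoter sequences were not used here.

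The 8615 genes reaching 1 TPM in 3 or more libraries entered a linear model of log2(TPM + 1), fitted in R 4.3.3 by limma 3.58.1 (intensity trend, two-sided, Benjamini-Hochberg over all genes, threshold 0.05); each adjusted p is from that fit unless another is named. Whole reads and gene lengths were recovered for all 24654 models above 0 from the ratios of TPM values between libraries, within 0.01 reads; counts of low genes may still lack a common factor. The test and the recovery were tested on simulated data. Each p-value sets the difference between groups against the spread between libraries within a group, moderated over all genes. The number of plants behind each library is not given, so what that spread covers is not known. No pair of libraries of the same group was within sampling noise by a chi-square test of reads (smallest ratio to degrees of freedom 4.59).

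The 3 genes, the lists (name patterns) and the rule for named genes were chosen with earlier results of these data known. The rule named the 3 genes, other models with the same kinds of names, and for each of the 3 genes the 3 most like it. From each list it named up to 4 rising and 4 falling genes and the most abundant tested gene. Outside this rule, orc3, FEN1, RBR1, cycD4, cks1, some untested DNA replication models and the cell type markers were also named. Alternatives were pseudocounts of 0.1 and 5, no filter, median-ratio scaling, TPM without the 100 most abundant genes, quantile normalization, the lane as a covariate, a replicate block, limma-voom on recovered reads, and each library left out.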

Additional observations from a re-analysis of the deposited data

How the results depend on the processing

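The differences of PCNA, his2b5 and GRMZM2G181153 were negative in all 15 alternatives. That of PCNA (-0.57) moved by more than the spread between replicates to -0.88 with limma-voom, -0.85 at a pseudocount of 0.1, -0.76 with the lane as a covariate, -0.76 without the 100 most abundant genes and -0.23 at a pseudocount of 5, where his2b5 and the H4 model were both at -0.37. With single libraries left out PCNA ran from -0.66 to -0.47, his2b5 from -0.76 to -0.59 and the H4 model from -0.60 to -0.48. All 3 had no overlap between groups, so leaving out a library could not reverse them.

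The 1739 calls over all genes became 654 with the lane. The 1 core histone call became 3 without the 100 most abundant genes, 3 with median-ratio scaling, 4 with quantile normalization, 2 with the replicate block (which added GRMZM2G149178 at adjusted p = 0.0460), 0 with the lane and 0 with no filter, and 0 to 4 with single libraries left out. The core histone call as reported was cenH3, higher after heat, and every call added to it was of a gene lower after heat. The 1 DNA replication call became 2 with limma-voom and 1 to 2 with libraries left out. The 2 chromatin assembly calls became 1 without the 100 most abundant genes, 1 with median-ratio scaling, 1 with quantile normalization, 1 with no filter, 0 with the lane, and 1 to 2 with libraries left out. The 2 cell cycle calls became 3 with limma-voom, 1 with the lane, 1 with no filter, and 1 to 2 with libraries left out. Of the 2 cell cycle calls as reported, 1 was krp11, which is named as a kinesin-related gene. The causes of these changes in the counts were not tested.

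Same-numbered libraries did not deviate together in every pair (correlations 0.12, 0.13 and -0.05), so the numbers were not taken as pairs; with the replicate block the 3 differences kept their values of -0.57, -0.67 and -0.55, and 1785 genes were called. The 3 genes had 20 to 161 reads a library, which limits the precision of each single value.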
